A study of Mus musculus with 6 samples.

Results

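The Reg genes encode small secreted C-type lectins, and 6 of them (Reg1, Reg2, Reg3a, Reg3b, Reg3g and Reg4) were followed in the jejunal epithelium of mice without Hdac1 and Hdac2. They were chosen by symbol from the 19616 genes of the deposited count table, where all 6 are present, and 5 of the 6 were among the 15618 genes with enough counts to be tested. Intestinal epithelial cells (IEC) were released from the jejunum with EDTA, and RNA was sequenced from 3 wild-type mice (C1, C3 and C3-3, called control) and 3 villin-Cre Hdac1-/-; Hdac2-/- mice (H1, H5 and H9, called Hdac1/2-deleted), all aged 3 months, with 1 library per mouse. The villin promoter drives Cre in the intestinal epithelium, so that any immune or stromal cell left in the preparation keeps both genes. The mice were of mixed C57BL/6J, 129SV and CD1 background, and the controls are labelled wild type, so that any effect of the Cre transgene itself cannot be told apart from the deletion.

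Reg lectins are made by gut epithelial cells and by pancreatic acinar cells and are released into the lumen. Reg3g binds the peptidoglycan of Gram-positive bacteria and helps to keep bacteria away from the villus surface, and Reg3b also acts on Gram-negative bacteria. Interleukin-22 acting through STAT3, and Toll-like receptor signals acting through MyD88, are known inducers of Reg3b and Reg3g in the gut. Reg1 was first found in regenerating pancreatic islets and Reg2 is a close relative of it. Reg4 is made by enteroendocrine and other secretory cells of the crypt.

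Reg3b and Reg3g rose about as much as each other in the Hdac1/2-deleted mice, by 6.04-fold and 6.69-fold, while Reg1 fell by a factor of 6.88 and Reg4 by a factor of 3.21. Reg3a had a lower mean by a factor of 6.13 but did not pass the test, and Reg2 was at most 6 reads in any mouse. The members called were thus 2 higher and 2 lower of 5 tested, where a call is an adjusted p of at most 0.05 in edgeR's quasi-likelihood test over all genes and a change of at least 2-fold. Of all genes tested, 12.4% were called higher and 12.7% lower, and the values of the groups did not overlap for 53.2% of genes, against 5 of the 5 tested members. The median log2 fold change of all genes tested was -0.01, and that of the 5 members was -1.68.

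Levels below are in CPM (counts scaled to a common library size) scaled by TMM, a normalization that assumes most genes do not change. The libraries held 36111035 (H5) to 65902344 (C1) counts, and 3 counts, the smallest number read as a signal, correspond to 0.0405 to 0.079 CPM. Hdac1 averaged 40.8 ± 7.33 CPM (SD, n = 3) in control and 3.77 ± 1.16 CPM in Hdac1/2-deleted mice, a log2 fold change of -3.43 (SE 0.26, adjusted p = 2.9e-05). Hdac2 averaged 27.7 ± 4.72 and 24.5 ± 2.70 CPM, with overlapping groups and a log2 fold change of -0.18 (SE 0.17, adjusted p = 0.44). Counts per gene do not separate deleted exons from the rest of a transcript, so the Hdac2 count does not check that allele. C3 was the only library with more than 13 counts over 4 Y-linked genes (3082 counts), and it was also the control mouse with the highest Reg3b, Reg1 and Reg3a. Summed CPM of the 8 epithelial markers, Epcam and Vil1 among them, were 12718 to 14605 in control and 10203 to 12571 in Hdac1/2-deleted mice.

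**Figure D1:**
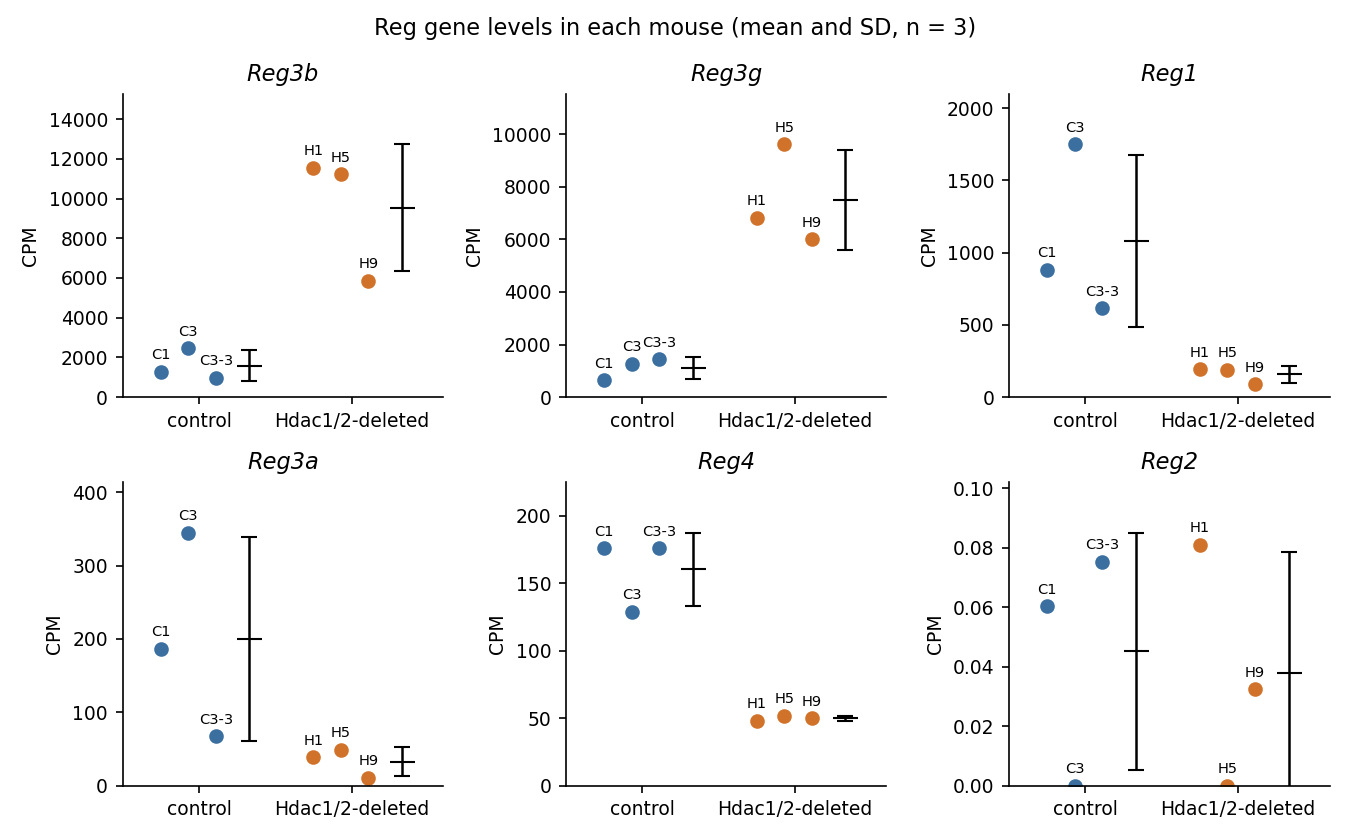
Level of each Reg gene in CPM (linear axes from 0) in the 3 control (blue) and 3 Hdac1/2-deleted (orange) mice, 1 point per mouse, with the mean and SD of each group in black beside the points. Reg3b and Reg3g are above all controls in every Hdac1/2-deleted mouse, Reg1, Reg3a and Reg4 are below them, and Reg2 lies at or under 6 reads.

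The promoters of Reg3b and Reg3g are shown because these genes rose together. Each is the 250 bases before the RefSeq start on GRCm38.p6, written along the gene's own strand, at chr6:78370635-78370884 (plus strand) for Reg3b and chr6:78468875-78469124 (minus strand) for Reg3g. Capitals mark TTCNNNGAA, the palindrome bound by STAT factors, and TATAAA, the TATA box, each searched on both strands, and the 2 motifs do not overlap in these sequences. The motifs were chosen with these genes' changes known.
Reg3b: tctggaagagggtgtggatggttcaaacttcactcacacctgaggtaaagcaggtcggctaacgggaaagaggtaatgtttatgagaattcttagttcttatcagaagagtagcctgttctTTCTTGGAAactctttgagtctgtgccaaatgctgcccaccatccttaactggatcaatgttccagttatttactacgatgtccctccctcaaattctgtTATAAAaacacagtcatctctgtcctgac
Reg3g: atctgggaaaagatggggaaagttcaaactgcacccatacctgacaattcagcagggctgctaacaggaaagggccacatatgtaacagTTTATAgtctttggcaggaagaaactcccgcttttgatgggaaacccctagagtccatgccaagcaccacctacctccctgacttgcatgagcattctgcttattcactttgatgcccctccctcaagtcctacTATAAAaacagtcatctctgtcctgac
In Reg3b, TTCTTGGAA starts 129 bases before the gene's start and TATAAA starts 29 bases before it. In Reg3g, no TTCNNNGAA was found in the 250 bases. Its TATAAA starts 27 bases before the gene's start, and a second copy on the opposite strand (TTTATA) lies 161 bases before it. Both promoters end in the same 20 bases, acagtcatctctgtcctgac. The longest run shared by any other pair of Reg promoters was 12 bases.

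The promoters of the members with lower means are set beside them for comparison. They lie at chr6:78425733-78425982 for Reg1, chr6:78380459-78380708 for Reg3a and chr3:98221906-98222155 for Reg4, all on the plus strand, with the same capitals.
Reg1: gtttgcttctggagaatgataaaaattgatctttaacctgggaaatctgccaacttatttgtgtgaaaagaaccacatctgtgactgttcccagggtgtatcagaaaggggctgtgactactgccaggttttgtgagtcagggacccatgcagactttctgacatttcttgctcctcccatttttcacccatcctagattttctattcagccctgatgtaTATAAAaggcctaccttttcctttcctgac
Reg3a: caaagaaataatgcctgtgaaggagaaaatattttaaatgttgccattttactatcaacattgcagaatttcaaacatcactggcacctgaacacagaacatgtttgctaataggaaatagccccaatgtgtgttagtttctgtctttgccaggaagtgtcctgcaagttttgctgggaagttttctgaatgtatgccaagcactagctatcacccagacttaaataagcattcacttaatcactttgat
Reg4: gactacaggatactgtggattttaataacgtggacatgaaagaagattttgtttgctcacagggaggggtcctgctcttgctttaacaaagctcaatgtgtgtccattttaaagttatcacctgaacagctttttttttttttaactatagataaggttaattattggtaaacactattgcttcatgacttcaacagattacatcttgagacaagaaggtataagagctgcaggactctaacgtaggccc
None of these 3 holds TTCNNNGAA, and only Reg1 holds TATAAA, 30 bases before its start, as does Reg2, also at 30 bases. Among 32851 mouse promoters of the same length, 7.02% held TTCNNNGAA and 12.4% held TATAAA. Both genes that rose hold the TATA box, as does Reg1, which fell, and 1 of the 2 that rose holds TTCNNNGAA. The related gene Reg3d, which was not called, also holds TTCNNNGAA, as TTCCCAGAA 238 bases before its start. A match is a string of letters in this window and no measure of binding. The RefSeq starts of Reg3b, Reg1 and Reg2 lie inside the longer GENCODE spans of these genes. Nearly all of the Reg3b window, and all of the Reg1 and Reg2 windows, therefore lie within the annotated genes. Other start sites have other windows.

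Reg3b (ENSMUSG00000071356, chr6:78370657-78373466, plus strand) is one of the bactericidal lectins of the small intestine. Its level was 1274 CPM in C1, 2472 in C3 and 990 in C3-3, and 11542 in H1, 11231 in H5 and 5855 in H9. H9 was the lowest of the Hdac1/2-deleted mice and still 2.37 times the highest control. The means were 1579 ± 786 and 9543 ± 3198 CPM (SD, n = 3), and the log2 fold change was 2.60 (SE 0.41, adjusted p = 0.0014). With 1 mouse left out at a time it ranged from 2.36 to 3.08.

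Reg3g (ENSMUSG00000030017, chr6:78466269-78468872, minus strand) encodes the lectin that acts on Gram-positive bacteria. Its level was 639 CPM in C1, 1279 in C3 and 1437 in C3-3, and 6830 in H1, 9624 in H5 and 6004 in H9. The lowest Hdac1/2-deleted mouse was 4.18 times the highest control, the widest gap among the rising members. The means were 1118 ± 422 and 7486 ± 1897 CPM, and the log2 fold change was 2.74 (SE 0.34, adjusted p = 0.00035), with a range of 2.47 to 2.98 when 1 mouse was left out.

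The rise took both genes to the top of the transcript list. Per kb of their longest coding transcript (783 bases for Reg3b and 771 for Reg3g), Reg3b ranked 27 in C1, 17 in C3 and 47 in C3-3 among all genes with a length, and 1 in H1, 1 in H5 and 4 in H9. Reg3g ranked 70, 39 and 32 in the same controls, and 3, 2 and 3 in H1, H5 and H9. The ratio of Reg3b to Reg3g per kb was 1.96 in C1, 1.90 in C3 and 0.678 in C3-3, and 1.66 in H1, 1.15 in H5 and 0.960 in H9, so that these values overlapped between the groups.

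Reg1 (ENSMUSG00000059654, chr6:78422711-78428667, plus strand) moved the other way from about the same starting level. Its level was 881 CPM in C1, 1751 in C3 and 615 in C3-3, and 193 in H1, 189 in H5 and 90.0 in H9. The lowest control was 3.18 times the highest Hdac1/2-deleted mouse. The means were 1082 ± 594 and 157 ± 58.3 CPM, and the log2 fold change was -2.78 (SE 0.47, adjusted p = 0.0033). Without C3, the highest control, it was -2.24 (adjusted p = 0.0029). On the scale of CPM per kb, Reg3b was 1.63 to 1.86 times Reg1 in the 3 control mice and 68.7 to 75.1 times Reg1 in the 3 Hdac1/2-deleted mice, and each range is narrow although Reg1 itself varied by a factor of 2.85 among the control mice and 2.15 among the Hdac1/2-deleted mice.

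Reg3a (ENSMUSG00000079516, chr6:78380709-78383827, plus strand), a lectin of the same subfamily as Reg3b and Reg3g, had the widest spread of the tested members. Its level was 187 CPM in C1, 345 in C3 and 67.6 in C3-3, and 38.6 in H1, 49.0 in H5 and 10.5 in H9. The groups did not overlap, but the lowest control was only 1.38 times the highest Hdac1/2-deleted mouse. The means were 200 ± 139 and 32.7 ± 19.9 CPM, and the log2 fold change of -2.61 (SE 0.83) had an adjusted p of 0.055. The call depends on the test and on C3-3, the control with the least Reg3a. Adjusted p was 0.0079 with DESeq2, 0.015 with limma-voom and 0.023 (log2 fold change -3.01) with edgeR without C3-3.

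Reg4 (ENSMUSG00000027876, chr3:98222156-98236748, plus strand) is the member outside the chromosome 6 cluster and the least variable. Its level was 176 CPM in C1, 129 in C3 and 176 in C3-3, and 48.2 in H1, 51.8 in H5 and 50.0 in H9. The means were 160 ± 27.0 and 50.0 ± 1.78 CPM, and the log2 fold change was -1.68 (SE 0.16, adjusted p = 7.8e-05). C3, the highest control for Reg3b, Reg1 and Reg3a, was the lowest for Reg4.

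Reg2 (ENSMUSG00000023140, chr6:78395623-78408106, plus strand) had 4, 0 and 4 reads in C1, C3 and C3-3, and 6, 0 and 2 reads in H1, H5 and H9. It was removed by the filter on low counts, and no difference was detectable at this depth. Reg3d (ENSMUSG00000068341, chr6:78375874-78378865, minus strand), a related gene of the same cluster that is not among the 6 members, had 35, 69 and 4 reads in the controls and 28, 17 and 3 reads in H1, H5 and H9. Its groups overlapped, and its log2 fold change of -1.10 (SE 0.98) did not pass the test (adjusted p = 0.40).

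**Figure D2:**
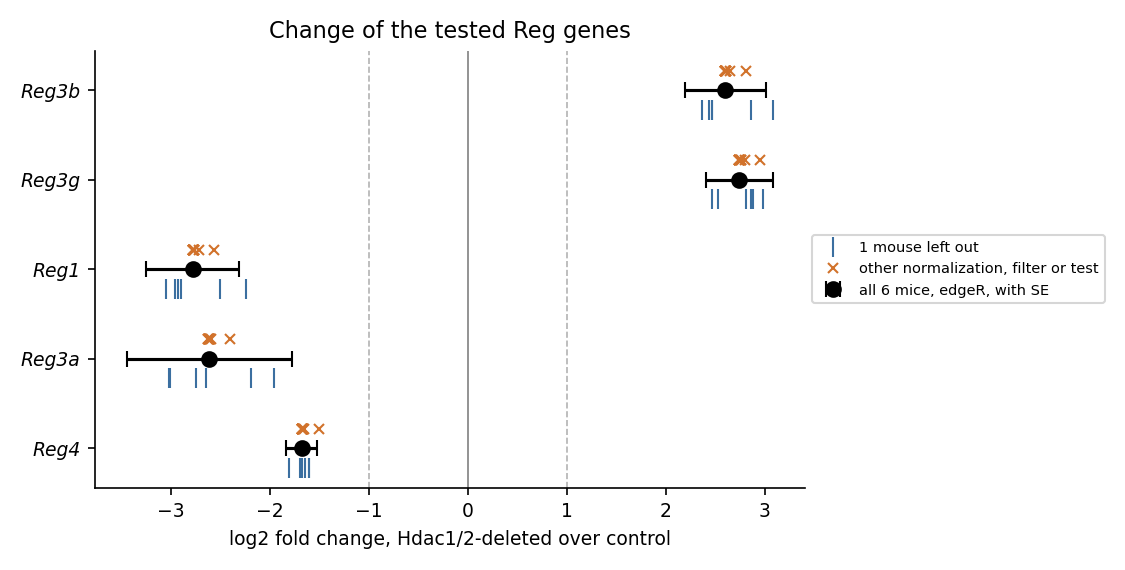
Log2 fold change of the 5 tested members, Hdac1/2-deleted over control. Black points with bars are the edgeR value and its SE from all 6 mice, blue ticks the values with 1 mouse left out, orange crosses those with another normalization, filter or test, and dashed lines mark 2-fold. The sign of each member stayed the same in each of these settings, and Reg3a has the longest bar.

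The order of the mean levels was Reg3b, Reg3g, Reg1 in both groups, and the distance between Reg3g and Reg1 grew. Per kb, the control means were 2016 ± 1004 CPM for Reg3b, 1450 ± 548 for Reg3g, 1197 ± 658 for Reg1, 242 ± 169 for Reg3a and 157 ± 26.4 for Reg4. Among the control mice, the values of Reg3g overlapped those of both Reg3b and Reg1, and those of Reg3a overlapped those of Reg4, while within each control mouse Reg3b was above Reg1 and Reg1 above Reg3a. In Hdac1/2-deleted mice the means were 12187 ± 4084 for Reg3b, 9710 ± 2460 for Reg3g, 174 ± 64.5 for Reg1, 48.9 ± 1.75 for Reg4 and 39.6 ± 24.1 for Reg3a. The values of Reg3b and Reg3g again overlapped, as did those of Reg4 and Reg3a, and Reg1 was above both of the latter in every mouse. Together Reg3b and Reg3g made up 64.1%, 66.0% and 77.0% of the family's transcripts per kb in C1, C3 and C3-3, and 98.7%, 98.8% and 99.0% in H1, H5 and H9. The summed level of all 6 members was 3157, 5976 and 3285 CPM in these controls, and 18653, 21144 and 12010 CPM in H1, H5 and H9, so the family as a whole was higher in every Hdac1/2-deleted mouse.

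Members that moved in opposite directions sit next to each other on chromosome 6. Reg3b, Reg3d, Reg3a, Reg2, Reg1 and Reg3g lie in this order within 98.2 kb (GENCODE release M21, GRCm38), and no other annotated gene lies between them. The called increases were at both ends, Reg3b at 0 kb and Reg3g at 95.6 kb, and the called decrease, Reg1, at 52.1 kb. The nearest protein-coding genes outside are Ctnna2, 391 kb to the left, which is not a row of the table used here, and Gm20594, 1349 kb to the right, which averaged 0.128 CPM in control and 0.0221 CPM in Hdac1/2-deleted mice, with an SD about as large as each mean, and was too low to test.

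**Figure D3:**
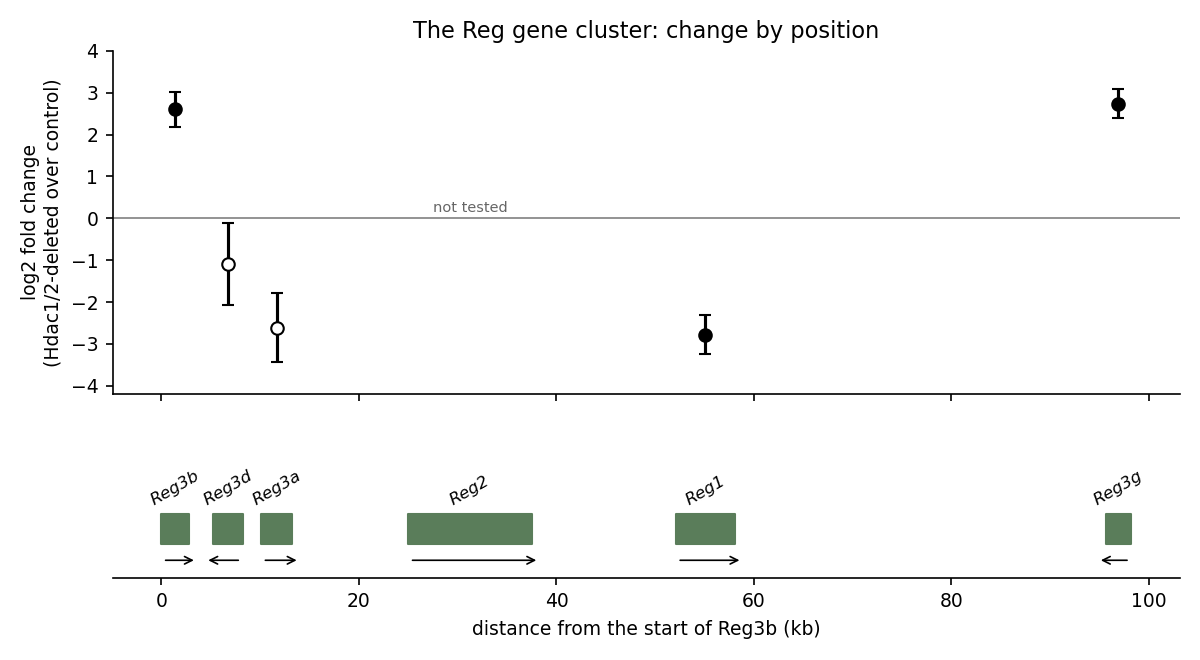
Log2 fold change (top, with SE; filled points passed the test, open points did not) against distance in kb from the start of Reg3b, and below it the gene spans with arrows for the direction of transcription. Increases stand at 0 kb and 95.6 kb, with the decrease of Reg1 between them, and Reg2 was not tested.

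The members are related genes, so reads could be shared between them. The longest stretch of identical bases between the longest coding transcripts of any 2 of these genes was 35 bases, for Reg3b and Reg3g, and 24 bases for Reg3a with either of them. Reg4 shared 9 to 13 bases with the others. These runs are shorter than the reads of this study, and no annotated gene overlaps a member. How the authors treated reads that fit several genes is not given in the sources used here.

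Receptors and transducers of the known inducing pathways are set beside the 12.4% of all genes called higher and 12.7% called lower. Of the 21 tested genes of cytokine and STAT3 signalling, 1 was higher and 1 lower, with a median log2 fold change of -0.18. Il17rc, a subunit of the interleukin-17 receptor, rose from 145 ± 32.9 to 471 ± 111 CPM (log2 fold change 1.70, SE 0.23, adjusted p = 0.00055), and Il11ra1, the interleukin-11 receptor, fell from 3.69 ± 1.44 to 1.47 ± 0.210 CPM. Il17ra, another subunit of the interleukin-17 receptor, moved the other way, from 33.8 ± 5.67 to 16.9 ± 3.19 CPM without overlap (adjusted p = 0.003). Its fall was just under the 2-fold limit, so it was not called. Il22ra1, the epithelial interleukin-22 receptor chain, was at 97.9, 85.5 and 98.4 CPM in C1, C3 and C3-3 and at 106, 91.2 and 107 CPM in H1, H5 and H9 (log2 fold change 0.11, SE 0.13, adjusted p = 0.53). Stat3 was at 146, 179 and 150 CPM and at 162, 204 and 167 CPM in the same order (0.17, SE 0.15, adjusted p = 0.42). The groups overlapped for both genes. Il10rb, the other chain of the interleukin-22 receptor, was at 142 ± 26.7 and 85.9 ± 6.85 CPM without overlap, a log2 fold change of -0.73 (SE 0.17, adjusted p = 0.0074) that is under the 2-fold limit. Socs3, of the same list, averaged 21.4 ± 21.8 and 60 ± 42.7 CPM with overlapping groups. Its log2 fold change of 1.49 (SE 0.92) did not pass the test (adjusted p = 0.26). These are transcript levels and do not report STAT3 phosphorylation. The cytokine genes Il22, Il6, Il17a and Il17f have no row in the table used here.

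Of 15 tested genes of Toll-like and Nod receptor signalling, 1 was higher and 4 were lower, with a median of -0.44. Nod1, a sensor of bacterial peptidoglycan fragments, rose from 3.74 ± 0.411 to 8.53 ± 0.905 CPM. Nod2, a related sensor that Paneth cells express, fell from 4.97 ± 3.49 to 0.601 ± 0.274 CPM, the largest change of the list (log2 fold change -3.04, SE 0.56, adjusted p = 0.0029). Tlr1 fell by 1.38, Tlr3 fell by 1.11 and the adaptor Ticam1 fell by 1.12 on the log2 scale. Myd88, the adaptor of most Toll-like receptors, was at 34.3 ± 2.90 and 18.7 ± 4.74 CPM, a log2 fold change of -0.88 (SE 0.20, adjusted p = 0.0066) under the 2-fold limit. Il10rb, Il17ra, Socs3 and Myd88 were named after their values were seen. With library totals in place of TMM, 2 rather than 4 genes of the Toll-like and Nod list were called lower.

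Most other inducible genes of epithelial defence that were tested were also higher. Of 14, 9 were higher and 1 was lower, with a median log2 fold change of 2.63 beside -0.01 for all genes. Saa3, an acute-phase protein, was at 0.211, 0.0900 and 0.263 CPM in C1, C3 and C3-3 and at 13.6, 16.2 and 3.98 CPM in H1, H5 and H9 (log2 fold change 5.88, SE 0.65, adjusted p = 0.00031). Lcn2, which binds bacterial siderophores, rose from 0.168 ± 0.118 to 3.67 ± 2.94 CPM. Duoxa2, the maturation factor of an enzyme that makes hydrogen peroxide at the cell surface, rose by a log2 fold change of 5.10, and the fucosyltransferase Fut2 by 3.55. Pigr, the transporter of immunoglobulin A into the lumen, fell from 8383 ± 2157 to 3060 ± 262 CPM. H5 was the highest mouse for Saa3, Lcn2, Duoxa2 and Fut2. Without H5, 7 of the list were called higher, and the lowest count with any mouse left out was 6. Some of these genes were near the floor in control, with 5 counts for Saa3 in C3 and 5 for Lcn2 in C1. When at least 10 counts were required in every sample, 6 of the list were called higher.

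Other secreted antimicrobial proteins and lectins moved both ways, with 2 higher and 6 lower of 15 tested and a median of -0.28. Lgals3, a galectin, rose from 334 ± 25.7 to 1170 ± 128 CPM, and Wfdc2, a secreted protease inhibitor, from 0.164 ± 0.0932 to 1.05 ± 0.239 CPM. The lower genes were Ang4, Lyz1, Pla2g2a, Itln1 and Mptx2, which also stand in the Paneth cell list, and Zg16, which also stands in the goblet cell list. Ang4 fell from 255 ± 52.1 to 6.35 ± 1.50 CPM, Lyz1 from 1561 ± 695 to 54.9 ± 11.2 CPM, and the lectin Itln1 from 807 ± 151 to 82.4 ± 13.9 CPM. Extl3 and Egfr, both proposed as receptors for Reg proteins, had log2 fold changes of 0.20 (adjusted p = 0.32) and 0.26 (adjusted p = 0.19).

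**Figure D4:**
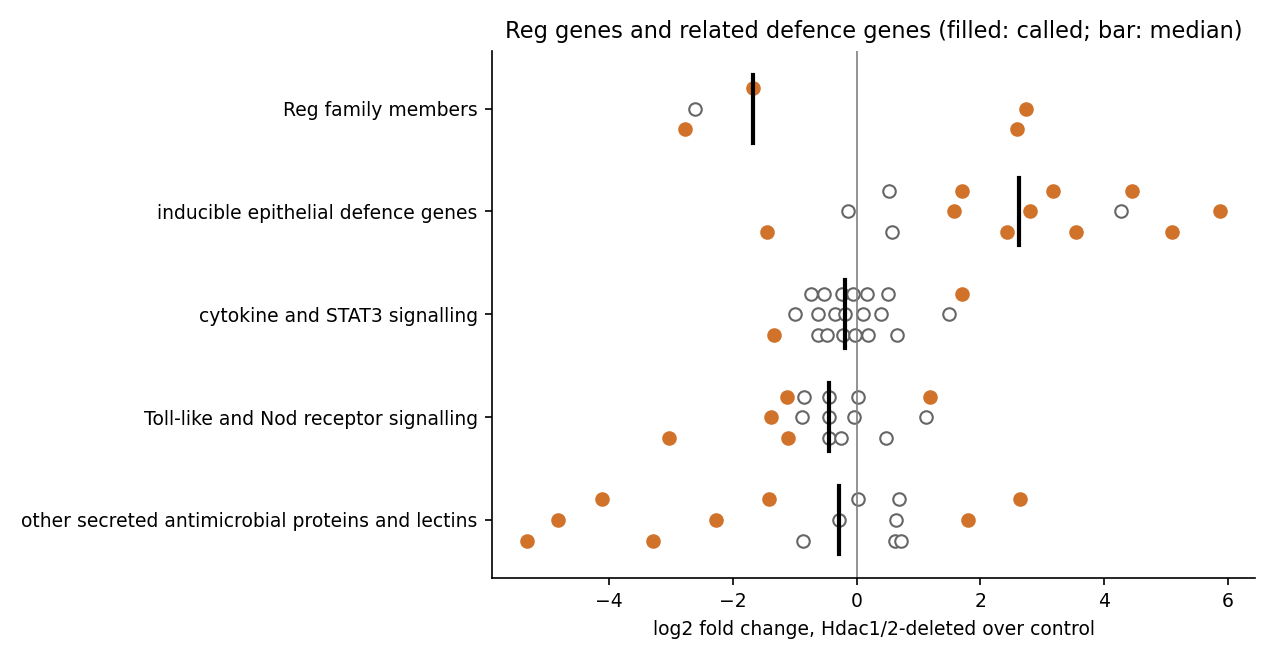
Log2 fold change, Hdac1/2-deleted over control, of the tested Reg genes and of 4 lists of related genes, 1 point per gene with vertical offsets for legibility only; filled points were called and black bars are medians. The median is 2.63 for the inducible defence genes and -0.18 for the cytokine and STAT3 genes.

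Markers of the secretory cells that can make Reg lectins also differed between the groups. In bulk RNA, fewer cells of a type and less RNA per cell cannot be told apart. Paneth markers summed to 3369 to 5326 CPM in control and 182 to 287 CPM in Hdac1/2-deleted mice, with 8 of 10 lower. Goblet markers summed to 18443 to 21066 and 6588 to 13688 CPM, with 3 of 8 lower. Enteroendocrine markers summed to 752 to 813 and 1102 to 1507 CPM, with 2 of 11 higher (Sct and Tac1) and 3 lower (Gip, Sst and Pcsk1). The rise in this sum was that of Sct, which went from 42.6 ± 9.75 to 718 ± 129 CPM. The median log2 fold change of the 11 enteroendocrine markers was -0.11. Enterocyte markers summed to 77625 to 89924 and 27538 to 38133 CPM, with 4 of 9 lower (Apoa4, Lct, Fabp2 and Slc15a1) and 1 higher (Alpi). Most of the fall in this sum was that of Apoa4, which went from 38393 ± 6240 to 6283 ± 3126 CPM. Slc5a1, Fabp1, Sis and Apoa1 were not called, with log2 fold changes of -0.02, -0.38, -0.55 and -0.78. The part of these shifts in the levels of Reg1, Reg3a and Reg4 was not tested.

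Markers of other tissues were below Reg3b and Reg3g in sum, but not below every member. Pancreatic acinar markers summed to 7.76 to 12.7 CPM in control and 18.4 to 29.6 CPM in Hdac1/2-deleted mice. Most of this was Cela1, at 6.76 ± 0.746 and 16.0 ± 1.72 CPM, and 2 of 6 tested genes were called higher, Cela1 and Ctrb1. Ctrb1, a chymotrypsinogen, rose from 0.354 ± 0.349 to 4.17 ± 2.23 CPM (log2 fold change 3.57, SE 0.71, adjusted p = 0.0047). The acinar sum in H9, 21.1 CPM, was above Reg3a in that mouse (10.5 CPM), but 17.4 CPM of it was Cela1. Apart from Cela1, Ctrb1 and Pnliprp1, the other 9 acinar markers reached at most 0.81 CPM in any control and 0.918 CPM in any Hdac1/2-deleted mouse. Of these 9, 8 had no counts in at least 1 library. Immune markers summed to 165 to 187 and 82.7 to 120 CPM, with 1 of 9 tested higher and 1 lower, which is above Reg3a and Reg4 in the Hdac1/2-deleted mice, and markers of stroma and endothelium to 4.93 to 13.5 and 4.55 to 10.3 CPM, with 1 of 6 lower. The part of these cells in the Reg levels was not tested.

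The genes whose pattern over the 6 mice was most like each member were found by the root mean square difference of log2 CPM, each gene centred on its own mean, among 10761 other genes with a mean of at least 1 log2 CPM. Reg3a's nearest gene was Reg1, at a difference of 0.46, followed by Nmnat3 at 0.59 and Gm5431 at 0.70. Reg1's nearest were Nmnat3 at 0.24, Ift172 at 0.39 and Gstt1 at 0.44, with Reg3a in place 7. Reg3b was nearest to Ddah2 and Greb1, both at 0.28, and Pmm1 at 0.29, and Reg3g to Limd2 at 0.18, Adgrl1 at 0.23 and Sprr1a at 0.24. Although Reg3b and Reg3g rose by like amounts, Reg3g was in place 80 for Reg3b and Reg3b in place 136 for Reg3g, at a difference of 0.56. Reg4 was nearest to Mast4 at 0.10, Hist1h2bc at 0.11 and Clybl at 0.12. These are descriptions over 6 libraries in which all points share the contrast between the groups.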

How the data were processed

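The 6 libraries (3 control, 3 Hdac1/2-deleted, jejunal IEC freed with EDTA) were paired poly(A) libraries made with a directional kit. The study's methods name alignment with STAR to GRCm38, while the submitters' processing notes name STAR 2.4.0f1, bcl2fastq 1.8.4 and mm9. The counter and annotation are not given in the sources used here. Genes were therefore matched by Ensembl identifier and symbol, and coordinates are those of GENCODE M21 and RefSeq on GRCm38, not of the files.

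The deposited table holds raw read counts per gene, used for all results here. The authors also deposited a score, the counts times 1 factor per sample, rounded, and the results of their own comparison (log2 fold change, mean log2 CPM, and DESeq and edgeR p-values). Neither was used. No gene has fewer than 10 counts in all.

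Counts were analysed with edgeR 4.0.16 in R 4.3.3 (filterByExpr, TMM, robust quasi-likelihood fit, no covariates), with Benjamini-Hochberg adjustment over 15618 genes. An SE was taken as the absolute log2 fold change over the root of its F statistic. Calls needed an adjusted p of at most 0.05 and at least a 2-fold change. Alternatives used limma 3.58.1 and DESeq2 1.42.0. Plots used matplotlib 3.10.9 in Python 3.11.15. The steps were tested on simulated data. Total counts were 58017009 to 65902344 in control and 36111035 to 65230566 in Hdac1/2-deleted mice. Per kb values divide CPM by the longest protein-coding transcript, or by the longest transcript of any type for genes without a coding one. A length was known for 19526 of 19616 genes.

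The members and gene lists were chosen with earlier results of these data known. Genes named are the members, Reg3d, Hdac1, Hdac2, Il22ra1, Stat3, called genes of the pathway lists, the 3 genes most like each tested member, and the neighbours of the chromosome 6 cluster. The proposed receptors Extl3 and Egfr and some marker genes are also named. Il10rb, Il17ra, Socs3 and Myd88, which were not called, were added after their values were seen. From lists with more than 8 called genes, those with the largest changes were named.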

Additional observations from a re-analysis of the deposited data

How the results depend on the processing

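Reg3b and Reg3g stayed higher and Reg1 and Reg4 lower, each past the threshold, under 10 alternatives and with any 1 mouse left out. Their log2 fold changes ranged over the alternatives from 2.60 to 2.81 for Reg3b, 2.74 to 2.95 for Reg3g, -2.78 to -2.56 for Reg1 and -1.68 to -1.50 for Reg4. Reg3a, not called with edgeR's robust fit (adjusted p = 0.055), was called with DESeq2 (log2 fold change -2.59), limma-voom (-2.63) and a fit that was not robust (-2.61, adjusted p = 0.014), and over mice left out it ranged from -3.02 to -1.96, passing without C3-3 only. The cause was not tested. Scaling by library totals moved the median of all genes to 0.18 and the calls from 1944 higher and 1990 lower to 2463 and 1538, and left 2 Toll-like and Nod genes lower.

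Without the 2-fold limit, 3198 genes were higher and 3168 lower, because fewer conditions were set. The lists then had 2 cytokine genes higher and 4 lower, 7 Toll-like and Nod genes lower, and 5 antimicrobial genes higher. With glmTreat, which tests against 2-fold, 1071 genes were higher and 882 lower, with 0 cytokine genes lower, 0 Toll-like and Nod genes higher and 1 lower, and 0 inducible defence genes lower. With at least 10 counts in every sample, 1 antimicrobial gene and 6 inducible defence genes were higher. With 1 mouse left out, the cytokine list had 1 to 2 genes higher and 1 to 2 lower, and the Toll-like and Nod list 1 to 2 higher. Of the values recomputed, 269 kept their call or, for counts, stayed within 1.5 times the reported count, 19 counts moved further, Reg3a gained its call in 4 settings, and 0 values changed direction. No paired analysis was made because the labels give no pairing of the mice.

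With 3 mice per group, p-values rest on the spread between these mice, and the depth of Reg2 (at most 6 reads) allows no comparison. One control, C3, differed from all other mice in Y-linked counts, so sex could not be told apart from the mouse. Depth was lowest in H5.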
